A study of Mus musculus with 6 samples.

Results

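The YAP and TEAD pathway was read here through 10 genes in whole mouse kidneys with an active Notch2 transgene. They are the coactivators Yap1 and Wwtr1, the DNA-binding partners Tead1, Tead2, Tead3 and Tead4, and 4 genes widely used as readouts of the pathway, Ankrd1, Amotl2, Ctgf and Cyr61, which the deposited table lists under their newer symbols Ccn2 and Ccn1. The members were chosen by symbol from 23873 genes in the table, of which 19503 had values. Expression was given as FPKM, a fragment count divided by transcript length and sequencing depth, and 9 of the 10 members were tested; Tead4 lay under the filter of 1 FPKM in at least 3 libraries. Kidneys labelled R26NICD2/+pax8cre, called NICD2 kidneys here, carried an allele at the Rosa26 locus for the intracellular part of Notch2, which activates transcription without a ligand, with a Pax8 driver active along the renal tubule epithelium. The controls were labelled wild type. All mice were 8 weeks old, and each group had 3 libraries. The labels give the driver as a Cre, but the title of the series gives Pax-rtTA. Control titles also start with NICD. The sources used here therefore settle neither the driver nor whether controls carried the Rosa26 allele. Nothing states that each library is a different animal, and the p-values cover only the spread between libraries, which may be technical.

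YAP and its paralog TAZ, the product of Wwtr1, are coactivators that cannot bind DNA themselves and reach their target genes through the TEAD proteins. In the Hippo cascade the STK kinases act on the LATS kinases, which phosphorylate YAP and TAZ. This keeps YAP and TAZ in the cytoplasm or marks them for breakdown. Much of the control of the pathway thus acts on protein and is not seen in transcript levels. In the kidney the pathway is known for its part in nephron formation, in tubule repair and in the growth of cysts.

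A row listed as NOTCH2 in capitals, which is not known to be the transgene, averaged 531 FPKM in NICD2 kidneys and 2.38 FPKM in wild type kidneys. The limma test at an adjusted p of 0.05 called 61.4% of the 13500 genes, 45.1% as higher in NICD2 kidneys and 16.2% as lower. The median log2 fold change of all genes was 0.32, and median-of-ratios scaling moved it to 0.02, with 28.7% then higher and 25.7% lower. Quantile normalization called 55% of genes, 28.6% higher and 26.4% lower. Each member is therefore given both as deposited and after that scaling. Kidney markers were present in both groups. Slc34a1 of the proximal tubule averaged 150 FPKM in NICD2 kidneys and 2330 FPKM in wild type. Umod of the thick ascending limb averaged 1350 FPKM and 1120 FPKM, and Slc12a1 of the same segment 14.4 FPKM and 161 FPKM. Of 6 distal nephron and collecting duct markers, 5 fell as deposited and after scaling, all but Umod. Wild type replicate 1 also held adrenal transcripts, with the 5 markers of adrenal cortex summing to 3630 FPKM there and to between 1.39 and 1.6 FPKM in the NICD2 libraries. It was also highest for adipocyte markers, with Fabp4, the most abundant, at 2139 FPKM, against 45.5 to 159 FPKM in NICD2 libraries and 527 and 117 FPKM in wild type replicates 2 and 3. Depth is not in the file; from the steps between low values it was estimated at 15900000 to 17850000 fragments in NICD2 libraries and 14650000 to 15000000 fragments in wild type libraries.

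Tead2, Ccn1, Ankrd1 and Tead3 rose in NICD2 kidneys, with or without scaling. Yap1 and Amotl2 rose in FPKM as deposited, by 0.13 and 0.23 more than the median gene on the log2 scale, and did not pass after scaling. Wwtr1 did not pass as deposited and fell after scaling, while Tead1 and Ccn2 passed in neither. In counts, 6 of the 9 tested members were higher and 0 lower as deposited, and 4 were higher and 1 lower after scaling, so 66.7% and 55.6% of them were called, against 61.4% and 54.4% of all genes. That overall share is near the background; what follows is how the members differed from each other. All NICD2 values lay above all wild type values for 7 members and below them for 1, where 49.9% of all genes tested were separated upward and 18.8% downward. After scaling 4 members were separated upward and 1 downward, against 34.3% and 30.5% of all genes.

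**Figure D1:**
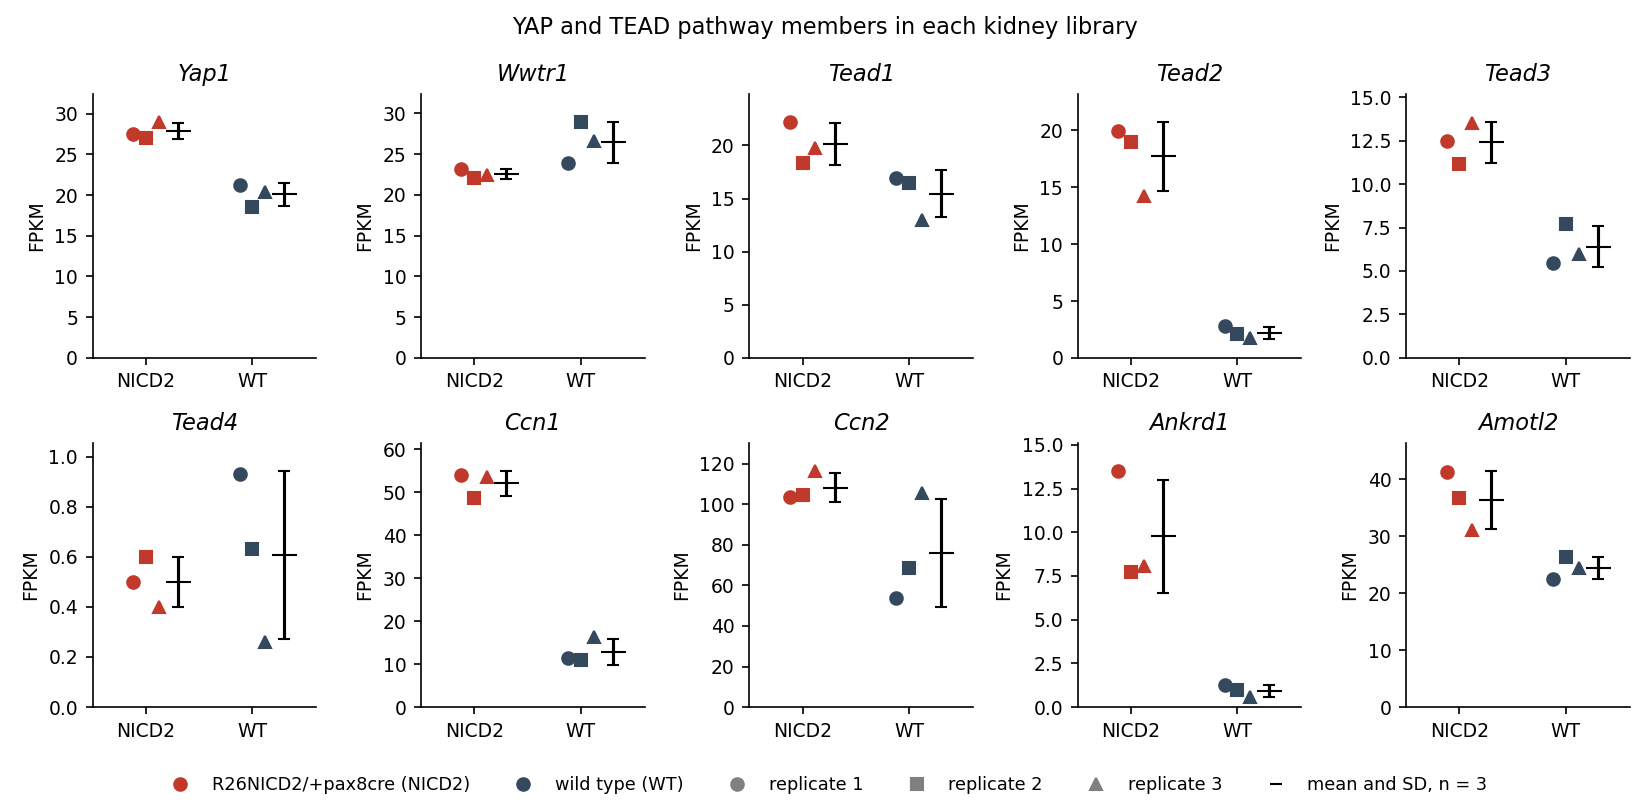
FPKM as deposited (vertical axes, each from 0) of the 10 members in 3 R26NICD2/+pax8cre (NICD2, red) and 3 wild type (WT, dark) libraries, with symbols for replicates and black bars for the mean ± SD. Tead2, Ccn1 and Ankrd1 are well apart between the groups, Wwtr1 is lower in all 3 NICD2 libraries, and Ccn2 and Tead4 overlap.

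The coactivators were examined first. Yap1 (gene 22601, GRCm38 chromosome 9, 7931999 to 8004638) stood at 27.5, 27.0 and 29.0 FPKM in the NICD2 libraries, against 21.2, 18.6 and 20.4 FPKM in the wild type libraries. All 3 NICD2 values lay above the wild type values, and the log2 fold change was 0.45 (SE 0.09, adjusted p = 0.00525). The median gene moved by 0.32 on the same scale, which leaves 0.13 for Yap1, and after scaling its log2 fold change was 0.12 (adjusted p = 0.346) with groups that overlapped. Upper quartile scaling and quantile normalization also ended the call, at 0.18 and 0.17; both left 4 members higher and 1 lower.

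Wwtr1 (gene 97064, chromosome 3, 57455644 to 57575910) went the other way. Its level was 23.17, 22.01 and 22.49 FPKM in NICD2 kidneys, against 23.86, 28.88 and 26.6 FPKM in wild type kidneys. The NICD2 values were the lower ones without overlap, by a narrow margin to wild type replicate 1 (log2 fold change -0.22, SE 0.10, adjusted p = 0.102). After scaling the values were 20.0, 19.6 and 20.1 in NICD2 kidneys against 24.7, 33.0 and 32.2 in wild type kidneys, which is -0.56 on the log2 scale (SE 0.13, adjusted p = 0.0103). Without wild type replicate 1, the library with adrenal transcripts, the fall passed also in FPKM as deposited, at -0.29 (adjusted p = 0.032).

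A ratio of 2 genes within a library is left unchanged by scaling with a single factor per library. The ratio of Yap1 to Wwtr1 FPKM was 1.19, 1.23 and 1.29 in NICD2 kidneys, and 0.89, 0.643 and 0.767 in wild type kidneys. Yap1 was thus the more abundant of the pair in all 3 NICD2 libraries and the less abundant in all 3 wild type libraries. The groups differed by 1.62-fold in this ratio (two-sided exact permutation test, p = 0.1, the smallest that 3 against 3 libraries allow). The summed FPKM of both genes was 50.7, 49.0 and 51.5 in NICD2 kidneys and 45.1, 47.5 and 47.0 in wild type kidneys, as deposited. The groups did not overlap, at 1.08-fold (exact permutation test, p = 0.1). Unlike the ratio, this sum depends on the scaling. After median-of-ratios scaling it was lower in every NICD2 library than in every wild type library. This ratio and the others below were chosen after the values were seen.

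**Figure D2:**
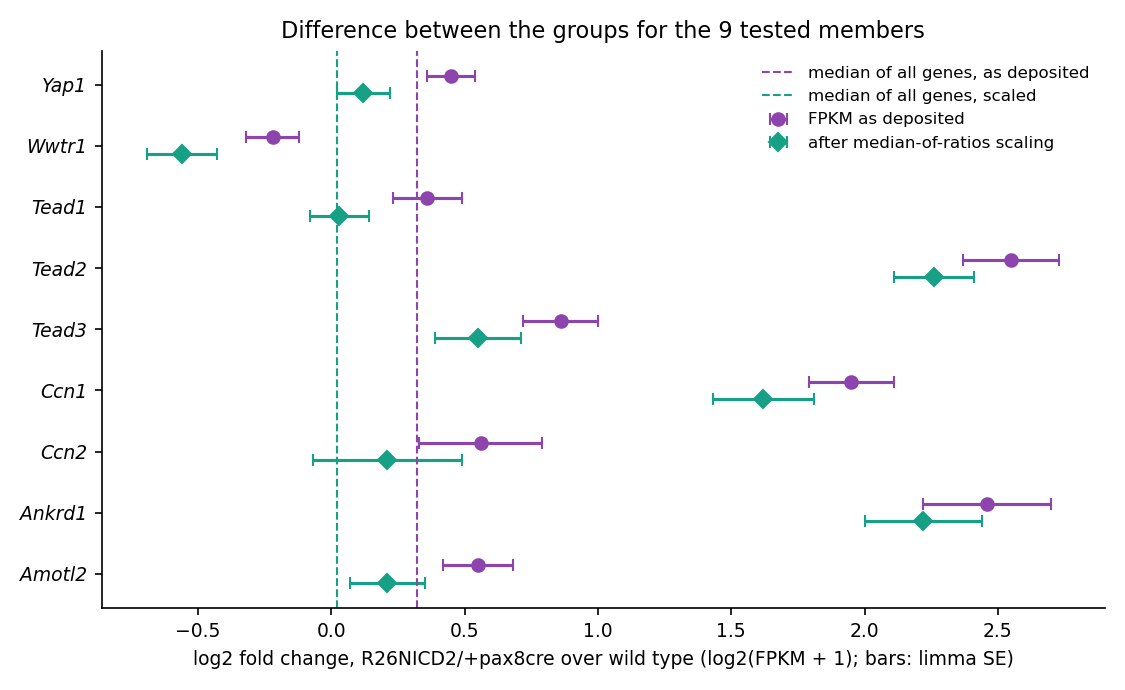
Log2 fold change of the 9 tested members, R26NICD2/+pax8cre over wild type, on the log2(FPKM + 1) scale, with limma standard errors, as deposited (circles) and after median-of-ratios scaling (diamonds). Dashed lines mark the medians of all 13500 genes, 0.32 and 0.02; Yap1, Tead1, Amotl2 and Ccn2 lie near them, Tead2, Ankrd1 and Ccn1 far above, and Wwtr1 below.

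The TEAD family gives the pathway its DNA contact. Tead2 (gene 21677, chromosome 7, 45215753 to 45233636), which in the mouse is known mainly from the embryo, had 20.0, 19.0 and 14.3 FPKM in NICD2 kidneys, against 2.76, 2.12 and 1.73 FPKM in wild type kidneys. The lowest NICD2 library was far above the highest wild type library, and the group means differed by 8.05-fold (log2 fold change 2.55, SE 0.18, adjusted p = 8.81e-05; 2.26 after scaling, adjusted p = 1.27e-04). Tead3 (gene 21678, chromosome 17, 28331066 to 28350805) had 12.5, 11.2 and 13.5 FPKM in NICD2 kidneys, against 5.48, 7.72 and 6.0 FPKM in wild type kidneys. It rose 1.94-fold in mean FPKM (log2 fold change 0.86, SE 0.14, adjusted p = 0.0022) and by 0.55 on the log2 scale after scaling (adjusted p = 0.0263).

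Tead1 (gene 21676, chromosome 7, 112679356 to 112906784), the most abundant family member in wild type kidneys, had 22.2, 18.4 and 19.8 FPKM in NICD2 kidneys and 17.0, 16.5 and 12.9 FPKM in wild type kidneys. The groups did not overlap, but the difference was that of the median gene: a log2 fold change of 0.36 (adjusted p = 0.0514) as deposited and 0.03 (adjusted p = 0.827) after scaling. Without wild type replicate 1 it passed as deposited, at 0.43 (adjusted p = 0.0356), where the median gene moved by 0.38. With scaling and without that library, Tead1 stood at 0.04 (adjusted p = 0.799). Tead4 (gene 21679, chromosome 6, 128227143 to 128300813) was listed at 0.50, 0.60 and 0.40 FPKM in NICD2 kidneys and at 0.93, 0.63 and 0.26 FPKM in wild type kidneys. These groups overlapped at a level too low for the test.

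As a family, the order of levels changed. In NICD2 kidneys Tead1 and Tead2 overlapped at 18.4 to 22.2 and 14.3 to 20.0 FPKM, followed by Tead3 and, far below, Tead4. In wild type kidneys Tead1 came first, then Tead3, then Tead2 and Tead4, and no neighbours in that order overlapped. The TEAD transcripts summed to 55.2, 49.1 and 48.0 FPKM in NICD2 kidneys and to 26.1, 26.9 and 20.9 FPKM in wild type kidneys, as deposited. Tead2 made up 36.2%, 38.6% and 29.7% of that sum in NICD2 kidneys and 10.6%, 7.87% and 8.27% in wild type kidneys. The share of Tead1 was 39.6% ± 2.0 in NICD2 kidneys and 62.6% ± 2.02 in wild type kidneys (SD, n = 3 each), and that of Tead3 was 24.5% ± 3.18 and 26.1% ± 4.44. Shares are free of the scaling; the smallest p of an exact permutation test is 0.1, which the shares of Tead1 and Tead2 reached, as did that of Tead4 on values under 1 FPKM, while that of Tead3 gave p = 0.8.

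**Figure D3:**
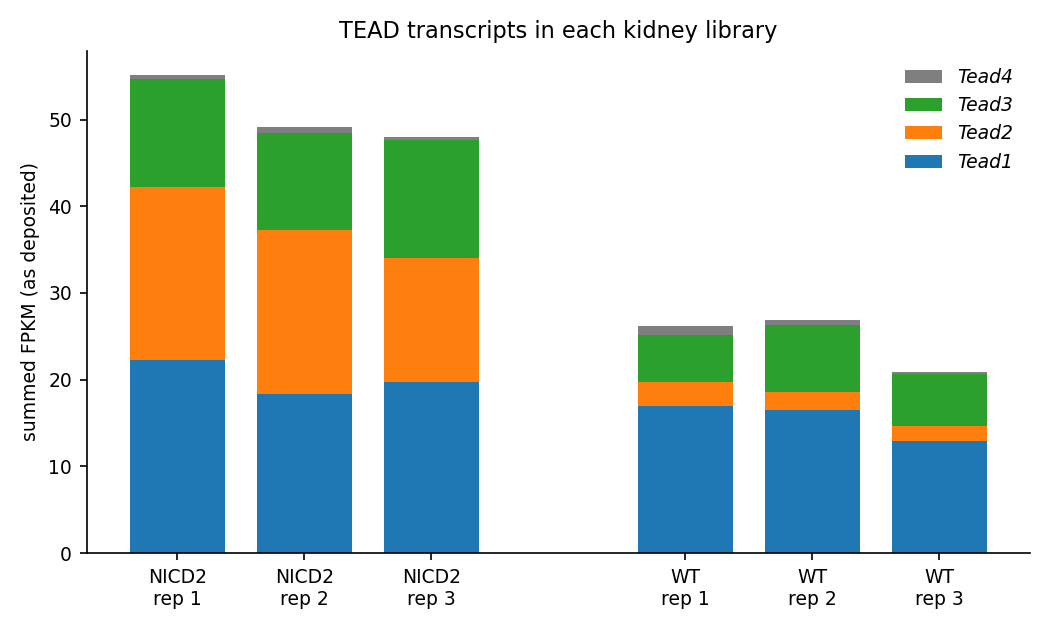
FPKM as deposited of Tead1, Tead2, Tead3 and Tead4, stacked for each of the 3 R26NICD2/+pax8cre (NICD2) and 3 wild type (WT) libraries. The sum lies between 48.0 and 55.2 in NICD2 kidneys and between 20.9 and 26.9 in wild type kidneys, and Tead2 supplies most of the difference.

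Among the 4 readout genes, Ccn1 and Ankrd1 rose. Ccn1 (gene 16007, chromosome 3, 145646971 to 145649985) encodes a secreted matrix-associated protein and is also an immediate early gene. It had 53.9, 48.7 and 53.5 FPKM in NICD2 kidneys, against 11.3, 10.99 and 16.3 FPKM in wild type kidneys. The groups were far apart, at 4.04-fold in mean FPKM (log2 fold change 1.95, SE 0.16, adjusted p = 1.35e-04; 1.62 after scaling, adjusted p = 7.51e-04).

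Ankrd1 (gene 107765, chromosome 19, 36111965 to 36119844), an ankyrin repeat protein best known from heart muscle, had 13.5, 7.75 and 8.04 FPKM in NICD2 kidneys, against 1.26, 0.96 and 0.57 FPKM in wild type kidneys. Its 10.5-fold rise in mean FPKM was the largest of the 10 members, although on the log2(FPKM + 1) scale Tead2 came first (log2 fold change 2.46, SE 0.24, adjusted p = 2.59e-04; 2.22 after scaling, adjusted p = 3.98e-04). The ratio divides by a wild type mean of 0.93 FPKM, under the level of the filter, which Ankrd1 passed through the NICD2 libraries. At the estimated depth these values rest on about 212 to 349 fragments in NICD2 libraries and 14 to 30.2 fragments in wild type libraries. NICD2 replicate 1 was the highest of its group, and without it the log2 fold change was 2.22. The heart myosins Myh6 and Myh7 were listed at no more than 0.02 FPKM in NICD2 kidneys and 0.12 FPKM in wild type kidneys. Other muscle markers were low but not absent, with all 7 of that list summing to 4.03 to 9.17 FPKM in NICD2 kidneys and 0.65 to 1.89 FPKM in wild type kidneys; of these Tnnt2, the most abundant, was the 1 gene tested and did not pass (adjusted p = 0.0511). All NICD2 values lay above all wild type values for Tnnt2, Actc1, Tnnt3 and Acta1 and below them for Myh6 and Myh7, while Ckm overlapped. All of these but Tnnt2 lay under the filter, and 49.9% of all genes tested were separated upward and 18.8% downward.

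Ccn2 (gene 14219, chromosome 10, 24595442 to 24598683), the relative of Ccn1 and the most abundant member, did not pass. It had 103.6, 104.5 and 116.4 FPKM in NICD2 kidneys and 53.6, 68.6 and 105.3 FPKM in wild type kidneys. The wild type libraries spread widely, and the highest of them reached into the NICD2 range (log2 fold change 0.56, SE 0.23, adjusted p = 0.0751; 0.21 after scaling, adjusted p = 0.554). The value moved with single wild type libraries: the log2 fold change as deposited was 0.82 without replicate 3 (adjusted p = 0.0059) and 0.34 without replicate 1 (adjusted p = 0.159). The ratio of Ccn1 to Ccn2 FPKM was 0.52, 0.466 and 0.459 in NICD2 kidneys and 0.211, 0.16 and 0.155 in wild type kidneys, 2.77-fold apart without overlap (exact permutation test, p = 0.1, the smallest possible here). The 2 CCN genes thus differed unequally between the groups, in a ratio that a single scaling factor per library leaves unchanged.

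Amotl2 (gene 56332, chromosome 9, 102717091 to 102733418) encodes an angiomotin that binds YAP and holds it outside the nucleus, and is itself a target of the pathway. It had 41.3, 36.7 and 31.1 FPKM in NICD2 kidneys, against 22.5, 26.4 and 24.4 FPKM in wild type kidneys. The groups did not overlap as deposited (log2 fold change 0.55, SE 0.13, adjusted p = 0.00922). They overlapped after scaling, where the log2 fold change was 0.21 (adjusted p = 0.258), and the other 2 normalizations ended the call as well.

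In the authors' deposited table, which gives log2 fold changes in the same direction, 4 members had a q under 0.05 and were higher and 1 was lower, where 21.3% of 19439 genes were higher and 21.5% lower. The authors' deposited table put Tead2 at 2.61, Ankrd1 at 2.99, Ccn1 at 1.64, Tead3 at 0.60 and Wwtr1 at -0.58. For Yap1, Tead1, Amotl2 and Ccn2 the authors' deposited table gave q-values of 0.417, 0.838, 0.327 and 0.777. Over the genes tested here the authors' log2 fold changes had a median of 0.02. That is the median after scaling here, where FPKM as deposited gave 0.32.

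Because several members are themselves known targets of TEAD factors, the bases before their transcription starts were read, in windows of 250 bases upstream of each RefSeq start (GRCm38.p6). The letters searched were GGAATG for TEAD and TGGGAA for RBPJ, the DNA-binding partner of the Notch intracellular domain, each on both strands. A run of TGGGAATG holds both motifs at once, and 1.27% of all windows have it. Of the 10 members 7 had a window, 10 windows in all since Tead3 has 3 starts and Wwtr1 has 2. The TEAD letters were found in 8 of these windows, before 6 genes, whereas 12.6% of all 32851 windows hold them. Both Wwtr1 windows hold the same match, so the 10 TEAD matches over all windows are 9 different ones. Of the 10 windows 8 overlap an annotated exon, and 6 belong to a start that lies inside the gene as the table gives it. The RBPJ letters were found in 4 windows, before Tead2, Tead3 and Ankrd1, and 21.6% of all windows hold them. A match of 6 letters is a description and not a site shown to be bound, and no test was made. Among the other YAP target genes described below, 3 of the 12 genes with a window held the TEAD letters and 0 held the RBPJ letters.

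The window before Ccn1, the member with the clearest rise among the secreted targets, lies at chr3:145649986-145650235 on the minus strand and is shown whole, 5′ to 3′, with its TEAD letters in capitals at bases -103 to -98 from the start.
Ccn1: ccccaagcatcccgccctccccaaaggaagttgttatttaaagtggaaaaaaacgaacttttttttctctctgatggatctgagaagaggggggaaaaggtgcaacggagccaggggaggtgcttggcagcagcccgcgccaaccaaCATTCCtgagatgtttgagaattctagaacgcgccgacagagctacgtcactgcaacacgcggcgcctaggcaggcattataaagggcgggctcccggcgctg

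For members that changed most or are known targets, and for both coactivators, 30 bases around motifs follow, all 5′ to 3′ on the strand of the gene with the motif in capitals. Ankrd1 has 2 runs of TEAD letters, at -210 to -205 (chr19:36120037-36120066) and -123 to -118 (chr19:36119950-36119979), and 2 of RBPJ letters, at -141 to -136 (chr19:36119968-36119997), between them, and at -63 to -58 (chr19:36119890-36119919). Amotl2 has TEAD letters at -65 to -60 (chr9:102717727-102717756), before a start that lies 713 bases inside the gene as the table gives it. Tead2 has no TEAD letters in its window and 1 run of RBPJ letters at -35 to -30 (chr7:45215745-45215774), before a start 39 bases inside the gene as given, so that these letters lie within it. Before its outermost start Tead3 has RBPJ letters at -206 to -201 (chr17:28350994-28351023) and TEAD letters at -182 to -177 (chr17:28350970-28350999); its 3 further matches, before starts 205 and 459 bases inside the gene, are not printed. The coactivators Yap1 (chr9:8004720-8004749) and Wwtr1 (chr3:57576029-57576058) each have 1 run of TEAD letters.
Ankrd1 first TEAD: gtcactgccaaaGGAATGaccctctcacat
Ankrd1 second TEAD: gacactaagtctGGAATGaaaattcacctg
Ankrd1 first RBPJ: tccctcttgggcTTCCCAgacactaagtct
Ankrd1 second RBPJ: gtgtgacttggcTTCCCAggctggaagatt
Amotl2 TEAD: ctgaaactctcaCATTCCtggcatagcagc
Tead2 RBPJ: tccctcccacttTTCCCAaacaaagctccc
Tead3 RBPJ: gtgtaggggaggTGGGAActctgagacgac
Tead3 TEAD: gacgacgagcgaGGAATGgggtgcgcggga
Yap1 TEAD: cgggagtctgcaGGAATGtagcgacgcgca
Wwtr1 TEAD: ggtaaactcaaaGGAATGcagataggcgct

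**Figure D4:**
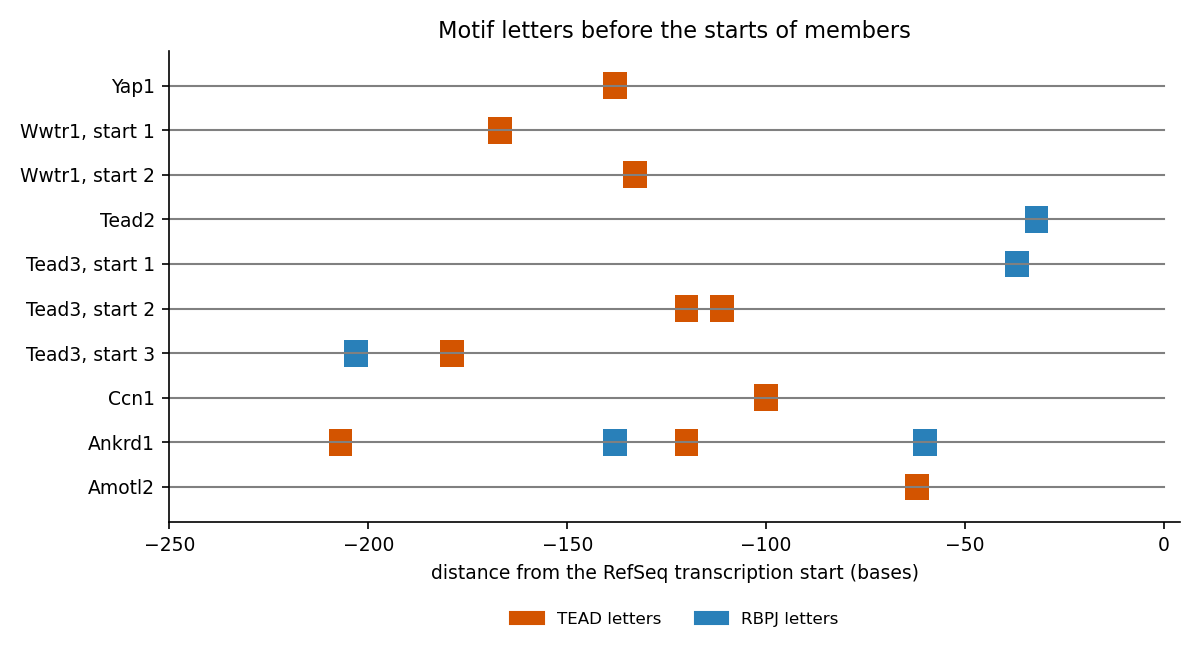
Positions of the TEAD letters (orange) and RBPJ letters (blue), on either strand, in the 250 bases before each RefSeq start of the 7 members with a window; the horizontal axis is the distance from the start in bases. Several starts of a gene are numbered by position on the chromosome; Ankrd1 carries 4 matches and Tead2 a single one.

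The kinases and scaffolds that restrain YAP had a median near that of all genes. Of 15 genes of the Hippo kinase cascade 7 rose and 0 fell as deposited, and 3 rose and 3 fell after scaling, with a median log2 fold change of 0.28 and -0.02 against 0.32 and 0.02 for all genes. The cascade had 46.7% of its genes called as deposited and 40% after scaling, below the 61.4% and 54.4% of all genes. Map4k4, a kinase that acts on LATS beside the STK kinases, had 22.04, 20.55 and 19.3 FPKM in NICD2 kidneys, against 12.05, 9.2 and 7.5 FPKM in wild type kidneys (log2 fold change 1.05, SE 0.17, adjusted p = 0.00174). Mob1a, an adaptor of LATS, rose 1.87-fold in mean FPKM, and Stk4 1.59-fold; both also passed after scaling. Stk3, the paralog of Stk4, stood at 8.32 ± 2.85 FPKM in NICD2 kidneys and 9.22 ± 1.72 FPKM in wild type kidneys (SD, n = 3 each; adjusted p = 0.573). Wwc1, a scaffold of the cascade and its most abundant gene, rose 1.59-fold as deposited, which did not pass after scaling (adjusted p = 0.181). Nf2, the upstream tumour suppressor merlin, stood at 25.7 ± 1.33 FPKM and 23.7 ± 0.756 FPKM (SD, n = 3 each; adjusted p = 0.306).

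The LATS kinases phosphorylate YAP and TAZ directly. Lats1 had 9.67, 7.96 and 8.80 FPKM in NICD2 kidneys and 6.93, 7.17 and 6.47 FPKM in wild type kidneys (log2 fold change 0.32, adjusted p = 0.0418; 0.00 after scaling, adjusted p = 0.971). As deposited, the call held without NICD2 replicate 2 and was lost without any other single library, at adjusted p-values of 0.0532 to 0.116. Lats2, which is itself a target of YAP, had 8.78, 9.01 and 7.99 FPKM in NICD2 kidneys and 10.2, 9.89 and 10.1 FPKM in wild type kidneys (log2 fold change -0.21, adjusted p = 0.101; -0.53 after scaling, adjusted p = 0.00448). The ratio of Lats1 to Lats2 was 1.10, 0.883 and 1.10 in NICD2 kidneys, above the 0.677, 0.725 and 0.643 of wild type kidneys in every library.

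Most tested genes of the cofactor list rose, but that list also holds the LIM proteins Limd1, Ajuba and Wtip, which act on LATS. Among its other tested genes, Vgll3, Vgll4, Amot and Ptpn14 rose as deposited and after scaling. Amotl1, Wbp2 and Yes1 did not pass as deposited. Of 12 listed genes 10 were tested, and 7 rose and 0 fell as deposited, with 7 higher and 1 lower after scaling and medians of 0.96 and 0.70. The share called was 70% and 80%, where 61.4% and 54.4% of all genes were called and 45.1% and 28.7% were higher. Vgll4, which competes with YAP for TEAD, had 22.3, 24.6 and 23.2 FPKM in NICD2 kidneys, against 11.7, 9.52 and 8.70 FPKM in wild type kidneys (log2 fold change 1.16, SE 0.13, adjusted p = 3.91e-04; 0.83 after scaling, adjusted p = 7.65e-04). The LIM proteins Wtip and Limd1, which inhibit LATS kinases, rose 2.25-fold and 1.88-fold in mean FPKM, both also after scaling. Wbp2, which binds the WW domains of YAP and is the most abundant of the list, stood at 114 ± 15.5 FPKM in NICD2 kidneys and 142 ± 8.18 FPKM in wild type kidneys (SD, n = 3 each; adjusted p = 0.0615), and fell after scaling (log2 fold change -0.68, adjusted p = 0.0114).

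Amot, Vgll3 and Vgll1, and below Mpp5, Nt5e and Dock5, were singled out after their values were seen. Amot, the angiomotin related to Amotl2, had 15.7, 15.5 and 16.9 FPKM in NICD2 kidneys, against 4.08, 6.92 and 5.82 FPKM in wild type kidneys. It rose 2.86-fold (adjusted p = 6.47e-04), and its ratio to Amotl2 was 0.38, 0.422 and 0.544 in NICD2 kidneys and 0.182, 0.263 and 0.239 in wild type kidneys. Vgll3, another TEAD-binding cofactor, averaged 2.10 FPKM in NICD2 kidneys and 0.623 FPKM in wild type kidneys. It was under 1 FPKM in every wild type library, so it passed the filter only through the NICD2 libraries. Vgll1, of the same family, was listed at 0.27, 0.08 and 0.13 FPKM in NICD2 kidneys and at 0 in all 3 wild type libraries, too low for the test.

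Polarity proteins and large cadherins feed into the cascade from the cell surface. Of 12 listed, 10 were tested, and 7 rose and 1 fell as deposited, with 4 higher and 1 lower after scaling and medians of 0.63 and 0.30. The share called was 80% as deposited, against 61.4% of all genes, and 50% after scaling, under the 54.4% of all genes. Fat1, an atypical cadherin, had 23.0, 22.8 and 24.9 FPKM in NICD2 kidneys, against 5.10, 4.94 and 3.34 FPKM in wild type kidneys (log2 fold change 2.18, SE 0.15, adjusted p = 9.05e-05; 1.87 after scaling). Pard6b and Llgl1, which act in the PAR and Scribble polarity complexes, rose 3.73-fold and 2.82-fold in mean FPKM, also after scaling. Crb3, a Crumbs protein of the apical membrane and the most abundant of the list by the mean of all 6 libraries, had 39.5, 41.1 and 39.7 FPKM in NICD2 kidneys and 19.9, 27.5 and 25.2 FPKM in wild type kidneys (log2 fold change 0.72, adjusted p = 0.00311; 0.38 after scaling, adjusted p = 0.10). Mpp5, the partner of Crumbs named PALS, was the 1 that fell, to 9.97 ± 2.47 FPKM in NICD2 kidneys against 16.8 ± 2.48 FPKM in wild type kidneys (SD, n = 3 each; adjusted p = 0.0155). That call was lost without NICD2 replicate 3, wild type replicate 2 or wild type replicate 3, where 0 genes of the list were lower.

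A wider list of 18 YAP target genes, known mainly from human tumour cells, went both ways. Of 17 tested 10 rose and 3 fell as deposited, and 8 rose and 4 fell after scaling, with medians of 0.74 and 0.41; Lats2 and Ptpn14 stand in this list and in those above. The share called was 76.5% and 70.6%, where 45.1% and 28.7% of all genes were higher and 16.2% and 25.7% lower, so the number that fell is near the background. Tgfb2, a growth factor of the TGF-beta family, had 6.53, 4.94 and 5.04 FPKM in NICD2 kidneys, against 0.55, 0.56 and 0.55 FPKM in wild type kidneys (log2 fold change 2.06, SE 0.14, adjusted p = 7.77e-05). With wild type values under 1 FPKM, Tgfb2, which counts among the 10 that rose, passed the filter only through the NICD2 libraries. Myof, a membrane repair protein, had 27.2, 22.1 and 19.1 FPKM in NICD2 kidneys, against 4.03, 4.84 and 3.48 FPKM in wild type kidneys (log2 fold change 2.21, SE 0.16, adjusted p = 1.04e-04). Against these, Igfbp3, which binds insulin-like growth factors and is the most abundant of the list, fell to 27.9, 38.5 and 41.0 FPKM in NICD2 kidneys against 136.7, 137.7 and 154 FPKM in wild type kidneys (log2 fold change -1.98, SE 0.16, adjusted p = 1.26e-04). Nt5e, an ectoenzyme that makes adenosine, and Dock5, an exchange factor, were the other 2 that fell, at -1.80 and -0.31 on the log2 scale. The call of Dock5 (adjusted p = 0.0331) was lost without NICD2 replicate 2 or 3 and without wild type replicate 2 or 3.

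**Figure D5:**
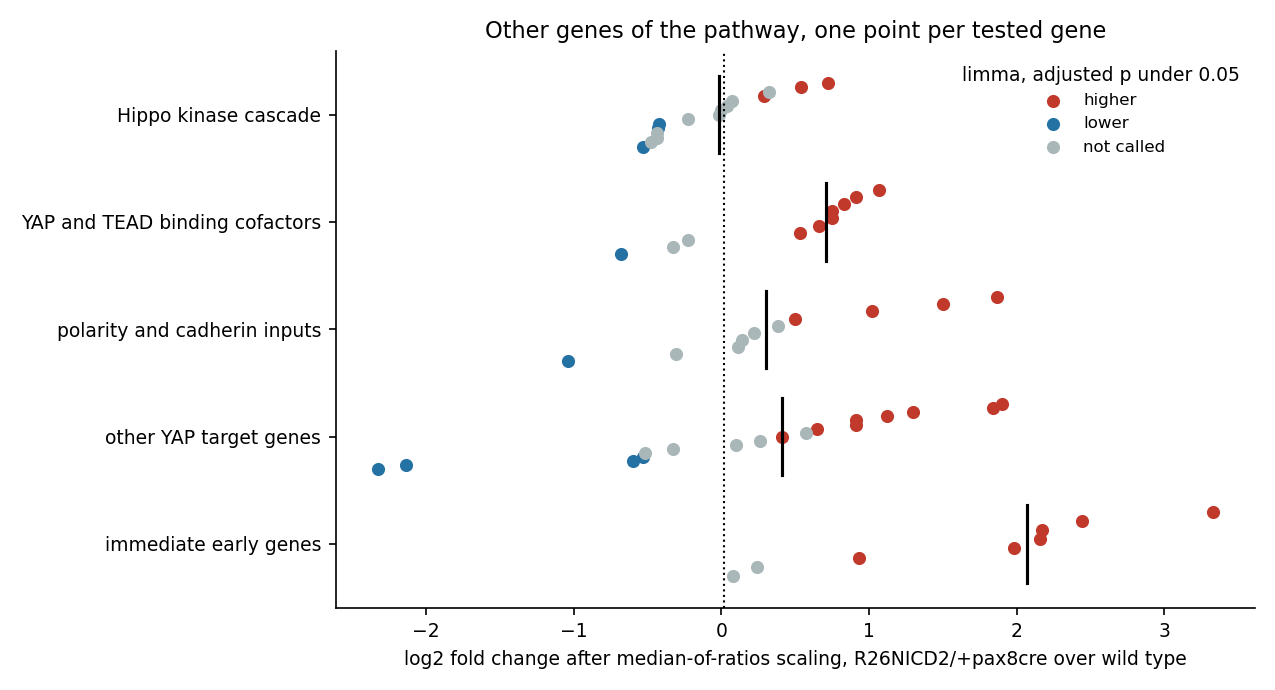
Log2 fold change after median-of-ratios scaling, R26NICD2/+pax8cre over wild type, of each tested gene in 5 lists; red and blue points passed a limma adjusted p of 0.05 upward and downward, grey points did not, black bars are list medians and the dotted line is the median of all genes, 0.02. Cofactors lie mostly above that line, the kinase cascade on both sides of it, and Igfbp3 and Nt5e are the 2 points below -2.

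Ccn1 is also an immediate early gene, so that class was read beside it. Of 10 such genes 8 were tested, and 7 rose and 0 fell as deposited, with 6 higher and 0 lower after scaling and medians of 2.36 and 2.07, where 45.1% and 28.7% of all genes were higher and their medians were 0.32 and 0.02. Ier2 had 59.1, 48.9 and 38.6 FPKM in NICD2 kidneys, against 8.08, 6.54 and 8.79 FPKM in wild type kidneys (log2 fold change 2.49, SE 0.18, adjusted p = 9.58e-05). The transcription factors Fos and Atf3 rose 7.90-fold and 10.4-fold in mean FPKM, and Ier3, the most abundant by the mean of all 6 libraries, stood at 53.5 ± 15.1 FPKM in NICD2 kidneys and 35.1 ± 8.28 FPKM in wild type kidneys (SD, n = 3 each; adjusted p = 0.0729). Ier3 passed without NICD2 replicate 3 or wild type replicate 3. The part of this class in the rise of Ccn1 was not tested.

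Markers of several cell types also differed between the groups, and in whole kidney RNA fewer cells of a type and less RNA per cell cannot be told apart. The counts that follow are as deposited, where 45.1% of all genes were higher and 16.2% lower. Of 7 pericyte and smooth muscle markers 5 rose and 0 fell, and their sum was 309 to 364 FPKM in NICD2 kidneys and 93.1 to 135 FPKM in wild type kidneys, with Tagln the most abundant. Of 6 fibroblast markers 3 rose and 2 fell, with sums of 293 to 315 FPKM and 144 to 276 FPKM. Of 6 podocyte markers 1 rose and 5 fell (62.7 to 68.4 FPKM and 97.8 to 118 FPKM), and of 7 endothelial markers 0 rose and 5 fell (70.8 to 91.6 FPKM and 139 to 171 FPKM). Of 7 macrophage markers 5 rose and 0 fell, with sums of 507 to 613 FPKM in NICD2 kidneys and 117 to 332 FPKM in wild type kidneys. All 6 proximal tubule markers fell, with sums of 64.4 to 439 FPKM in NICD2 kidneys and 3880 to 5730 FPKM in wild type kidneys. Of 6 distal nephron and collecting duct markers 5 fell, all but Umod. Of 5 adipocyte markers 4 were tested and 0 passed, with sums of 61.7 to 394 FPKM in NICD2 kidneys and 149 to 4170 FPKM in wild type kidneys. After scaling 4 pericyte and smooth muscle markers were higher, 6 endothelial, 3 fibroblast and 1 adipocyte markers were lower, and the other counts given here were as before. The part of these shifts in the member results was not tested.

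Genes whose pattern over the 6 libraries was nearest to a member were found by the root mean square difference of log2(FPKM + 1) profiles, each centred on its mean. For Yap1 they were Nkap at 0.026, Sf3b6 at 0.0273 and Gatad2a at 0.0314, with log2 fold changes of 0.44, 0.44 and 0.45. For Ccn2 they were Mylip at 0.109, Slc17a4 at 0.115 and Fam221a at 0.123. Each of these, like Ccn2, was lowest in wild type replicate 1 and did not pass the test. Such likenesses follow largely from how the genes were chosen. Slc17a4, at 0.33 to 2.05 FPKM, and Fam221a, at 0.45 to 1.55 FPKM, also lay near the filter.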

How the data were processed

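The members and gene lists were chosen with earlier results of these data known. RNA of frozen kidneys was made into TruSeq libraries, per the labels' protocols. The authors deposited FPKM per gene and library and their mean FPKM per group, per the file headers, with log2 fold changes, p-values and q-values. The authors credit the q-values to DESeq2, per the file headers, which name no tool for the rest. Bowtie 0.12.2 and mm8 stand in the submitters' processing notes. Positions are nevertheless read as GRCm38, since 88.2% of the 22002 genes found in its RefSeq annotation share both ends with it. The counting tool is not given in the sources used here. The design named a count test first; since the file holds FPKM, limma 3.58.1 with a mean-variance trend (R 4.3.3) was run on log2(FPKM + 1), with genotype as the only term, over genes that reach 1 FPKM in 3 libraries, two-sided with Benjamini-Hochberg adjustment, and tested on simulated data. Fold changes on this scale understate those of low genes. Means carry SD over 3 libraries. No scaling for library composition is named by the authors, but their log2 fold changes had a median of 0.02 over the genes tested. The top 10 genes held 6.65% to 7.62% of all FPKM in NICD2 libraries and 17.4% to 23.4% in wild type libraries. Depth was estimated from genes of 1 transcript of 500 to 1500 bases, where 70.8% to 78% of values up to 8 fragments lay within 0.15 of a whole number. The search had a set upper limit, since a finer step, at a greater depth, also gives whole numbers. Named genes were all members, in each list the 3 called genes of smallest p plus the most abundant gene, Stk3, Stk4, Lats1, Lats2 and Nf2, and the 3 nearest patterns to Yap1 and Ccn2; others were chosen after their values were seen. Promoter windows come from RefSeq (GRCm38.p6). There were 0 further columns of single libraries.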

Additional observations from a re-analysis of the deposited data

How the results depend on the processing

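The balance of all genes rests on scaling: 6095 were higher and 2190 lower as deposited, against 3873 and 3473 with median-of-ratios scaling, 3866 and 3558 with quantile normalization, and 3827 lower when the median-of-ratios fit left out wild type replicate 1. A filter of 10 FPKM, which tested 7559 genes in place of 13500, gave 3742 and 1439. With median-of-ratios scaling, quantile normalization, upper quartile scaling and the scaling without wild type replicate 1, 1 member was lower in place of 0, and 4 were higher in place of 6. In the same 4 settings the kinase cascade had 3 higher in each, and 3, 4, 3 and 5 lower. Cofactors had 1 lower under the block described below, under upper quartile scaling, and under median-of-ratios scaling with or without wild type replicate 1. Polarity genes had 4 higher with median-of-ratios scaling, with or without wild type replicate 1, and 2 lower with quantile normalization and with the scaling without that library. The other YAP targets had 6 higher with the filter of 10 FPKM, and 5 lower with the scaling without wild type replicate 1. In that last setting Ccn2 changed sign, to -0.07. Leaving out each library in turn gave 5156 to 6661 genes higher and 1826 to 2276 lower, 0 to 1 members lower and 0 to 1 polarity genes lower. The replicate numbers are shared between the groups, but the deviations of same-numbered libraries correlated at 0.10, -0.05 and 0.01, so they share only a number; with the replicate block 5818 genes were higher and 2164 lower, and Ccn2 passed (adjusted p = 0.0396). Tead2, Tead3, Ankrd1 and Ccn1 passed upward in every setting run, except that Ankrd1 was not kept by the filter of 10 FPKM. Tead4, under 1 FPKM in every library, was not tested.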

Other observations

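Relatives of the readout genes, looked up after the member values were seen, stood at low levels. Ccn4, a secreted protein of the CCN family like Ccn1 and Ccn2, had 2.58, 2.61 and 2.60 FPKM in NICD2 kidneys, against 0.84, 0.83 and 0.46 FPKM in wild type kidneys, and rose also after scaling (log2 fold change 0.88, adjusted p = 0.00172). Ccn4 was under 1 FPKM in every wild type library and passed the filter only through the NICD2 libraries. Ccn5 was at 0.89, 0.90 and 1.19 FPKM in NICD2 kidneys and 0.50, 0.08 and 0.04 FPKM in wild type kidneys, and Ccn3 and Ccn6 at 0.56 FPKM or less in every library, all 3 under the filter. Ankrd23, a muscle ankyrin repeat protein related to Ankrd1, averaged 3.55 ± 1.11 FPKM in NICD2 kidneys and 3.53 ± 1.04 FPKM in wild type kidneys (SD, n = 3 each; limma adjusted p = 0.991), and Ankrd2 was at 0.14 FPKM or less in every library.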
